A study of Mus musculus with 24 samples.

Results

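The intragenic lncRNA features of mouse liver are 288 noncoding transcript models whose names in the table class them as intragenic, most of which lie within or across annotated coding genes. They were chosen as the features whose name begins with NC_INTRA_ and whose highest value among the 4 group values reached 0.5 TPM (a transcript level scaled to transcript length and library size) in the table the authors made and deposited. That left 288 of the 1322 features with such a name, out of 75794 features in all. The features were thus chosen by their group levels, so the levels below are a description, and counts over these features stand beside the same counts over all features. Just inside the threshold, NC_INTRA_C18_30933, NC_INTRA_C17_29621 and NC_INTRA_C19_15038 had highest values of 0.501, 0.502 and 0.503 TPM. Just outside it, NC_INTRA_C15_27471, NC_INTRA_C7_5890 and NC_INTRA_C2_2048 had highest values of 0.49958, 0.498 and 0.493 TPM.

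The livers came from 24 Ghr fl/fl mice (both alleles of the growth hormone receptor gene floxed) on the C57BL/6 strain, in 4 groups of 6 animals, and RNA was polyA-selected. All were 10 to 12 weeks old when injected once by tail vein with adeno-associated virus serotype 8 (AAV8), were kept on chow, and were examined 7 days later. Each vector used the promoter of thyroxine-binding globulin, which drives expression in hepatocytes. The aHepGHRkd_STAT5bCA group received Cre recombinase and a constitutively active mouse STAT5b, at doses of 1.5 and 0.75 in units of 10 to the power 11 genome copies. The aHepGHRkd_rIGF1 group received Cre at 1.5 and rat IGF1 at 2.0, and the aHepGHRkd group received Cre at 1.5. Control animals received a Null vector only. The total was 3.5 in every group, with Null vector making up the rest where the other vectors fell short of it. In aHepGHRkd_rIGF1 the other vectors alone reached 3.5, so the groups also differ in Null vector dose. Control differs from aHepGHRkd in Cre as well as in Ghr. All samples are labelled male, whereas the treatment protocol names both sexes.

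Growth hormone acts on hepatocytes through its receptor and the kinase JAK2, which activates the transcription factor STAT5b. In rodents the male and female patterns of hormone release give many liver genes a sex-biased level, among them cytochrome P450 (Cyp) genes, major urinary protein (Mup) genes and many long noncoding RNAs. An lncRNA named intragenic shares its place in the genome with another gene, so its reads have to be kept apart from those of that gene.

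The promoters of genes on which the results turn are shown as sequence, from RefSeq on the build GRCm38.p6, which is not the mm9 build of the table. Each window holds 250 bases before the annotated start in lower case and 50 bases from the start on in capitals. The features' own bases were not read, since no mm9 genome was used here. Cyp2b9 and Cyp2b13 are the neighbours joined by the feature with the highest fold. Rapgef4 holds the feature with the lowest one. Gdap10 is the RefSeq noncoding gene whose accession NC_INTRA_C12_10508 carries.
Cyp2b9, chr7:26173159-26173458, plus strand: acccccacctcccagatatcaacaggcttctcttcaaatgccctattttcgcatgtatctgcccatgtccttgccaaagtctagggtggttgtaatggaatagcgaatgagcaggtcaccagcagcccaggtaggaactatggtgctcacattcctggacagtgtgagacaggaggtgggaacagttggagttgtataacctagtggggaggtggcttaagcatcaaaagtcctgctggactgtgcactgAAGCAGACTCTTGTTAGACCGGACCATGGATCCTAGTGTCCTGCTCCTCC
Cyp2b13, chr7:26061245-26061544, plus strand: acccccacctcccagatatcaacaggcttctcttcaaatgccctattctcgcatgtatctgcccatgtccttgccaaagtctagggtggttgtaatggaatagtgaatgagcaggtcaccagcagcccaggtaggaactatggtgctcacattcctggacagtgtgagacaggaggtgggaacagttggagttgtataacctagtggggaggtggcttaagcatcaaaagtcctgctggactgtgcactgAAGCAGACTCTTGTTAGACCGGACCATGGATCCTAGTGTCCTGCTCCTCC
Rapgef4, chr2:71980965-71981264, plus strand: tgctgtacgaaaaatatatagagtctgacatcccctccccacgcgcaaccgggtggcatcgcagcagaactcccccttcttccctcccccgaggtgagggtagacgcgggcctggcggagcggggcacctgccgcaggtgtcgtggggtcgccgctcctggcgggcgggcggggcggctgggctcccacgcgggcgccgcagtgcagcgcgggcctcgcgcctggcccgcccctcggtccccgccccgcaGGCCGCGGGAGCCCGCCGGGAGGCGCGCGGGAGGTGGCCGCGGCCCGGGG
Gdap10, chr12:32823866-32824165, plus strand: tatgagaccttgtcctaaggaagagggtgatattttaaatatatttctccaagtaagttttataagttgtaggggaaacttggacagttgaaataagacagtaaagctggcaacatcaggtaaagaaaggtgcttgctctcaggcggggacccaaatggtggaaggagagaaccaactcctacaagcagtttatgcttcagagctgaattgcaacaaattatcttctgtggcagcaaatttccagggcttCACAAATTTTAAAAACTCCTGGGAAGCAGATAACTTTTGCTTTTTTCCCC
The Cyp2b9 and Cyp2b13 windows were identical in 298 of 300 aligned columns (99.3%). On both strands, the letters TTCNNNGAA, a form of the STAT5 motif, were in none of the 4 windows and in 2726 of 32851 promoters of this length (8.3%). The TATA letters TATAAA were in the Gdap10 window and in 4473 promoters (13.6%), and the C/EBP letters TTGCGCAA were in none of the 4 and in 60 promoters (0.183%). A match is a description of letters and not a binding site. A promoter was matched by symbol for 27 of the 40 coding genes that called features touch.

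The values of the whole table set the frame. Ghr, the targeted gene, stood at 49.4 TPM in aHepGHRkd_STAT5bCA, 58.4 in aHepGHRkd_rIGF1, 55.1 in aHepGHRkd and 180 in Control, and the aHepGHRkd over Control ratio was 0.302 (adjusted p = 9.99e-61) by the authors' deposited table. The samples are labelled as hepatocytes, but the tissue is liver. The 18 hepatocyte identity genes summed to 185635, 178792, 173379 and 162690 TPM in the same order of groups, and every other cell type list was detected at lower sums. These were 67.2, 116, 73.1 and 74.2 TPM for 10 stellate cell genes, 173, 167, 165 and 133 for 11 Kupffer cell genes, and 87.8, 101, 90.1 and 86.4 for 10 endothelial genes. They were 42.1, 72.6, 54.2 and 48.0 TPM for 8 cholangiocyte genes, 5.33, 7.14, 6.24 and 5.26 for 11 lymphocyte genes, and 466, 560, 293 and 497 for 7 erythrocyte genes. No gene of these lists was at 0 in all groups, and the part of other cells in the results below was not tested. In bulk liver, fewer cells of a type and less RNA per cell cannot be told apart. The table gives 1 value per group and none per animal, so no SD can be given, depth is unknown, and each p below is the authors' own edgeR value, read as adjusted over all features. A feature is called where that p is under 0.05.

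Most of the 288 features were short and lay inside 1 gene. For 233 of them (80.9%), at least 50% of the listed bases fell within the mm9 span of 1 coding gene on the same strand. These had a median of 646 listed bases (76 to 27181), 106 had 1 exon and 120 had 2. A further 42 (14.6%) touched a same-strand coding gene but lay mostly outside it. They had a median of 78899 listed bases, up to 548778, and a median of 9 exons, up to 124. Of these 42, 23 touched 2 or more same-strand genes. The last 13 touched no same-strand coding gene, and 6 of them touched none on either strand, although all are named intragenic. The 50% limit was set after the data were seen. Listed bases are those of the intervals given for a feature, and are not a count of exon bases or a transcript length. In NC_INTRA_C4_38596, for example, 1 listed interval of 29999 bases (115206255 to 115236253) fills the gap between Cyp4a10 and Cyp4a31.

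**Figure D1:**
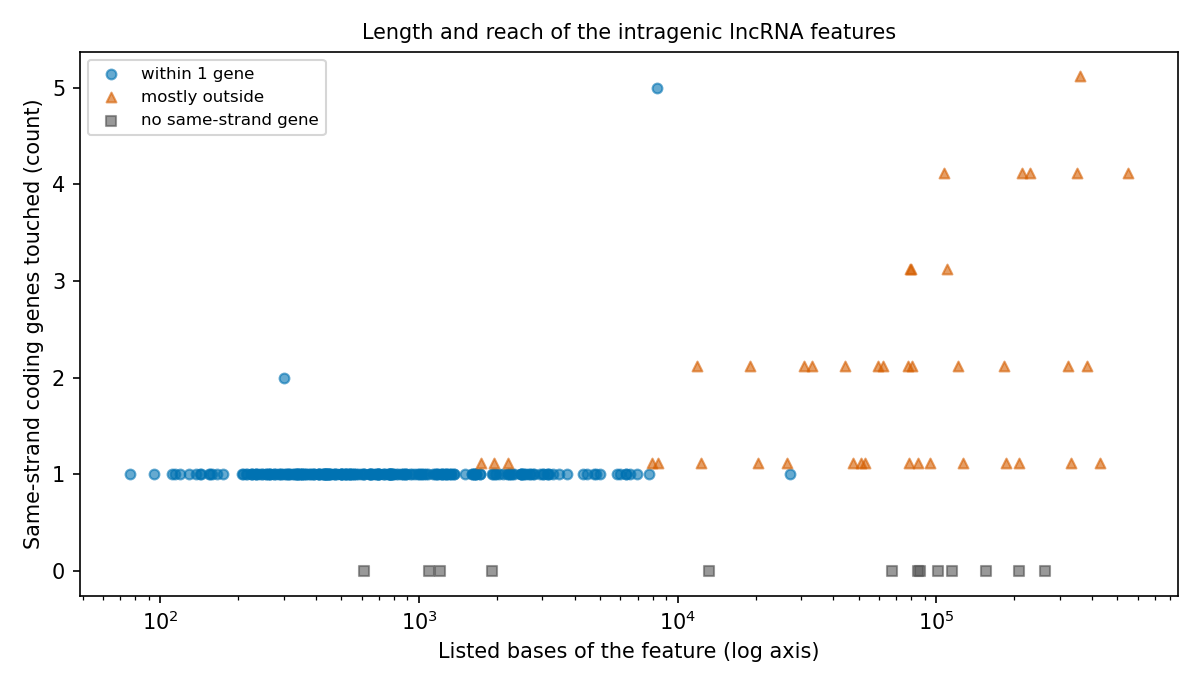
Listed bases of each feature (horizontal log axis) against the number of same-strand coding genes its intervals touch (vertical axis). Triangles are drawn slightly above their whole number so that they do not cover circles. Of the 288 features, NC_INTRA_C8_7308, which has a reversed interval, is not drawn and is not in the medians. The 233 features within 1 gene (circles) have a median of 646 listed bases, and the 42 lying mostly outside (triangles) a median of 78899. A further 13 touch no same-strand gene (squares).

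The authors' gene models kept most of these features apart from their hosts on paper. Of the 288 features, 17 shared any listed base with the listed intervals of a same-strand coding gene. Some listed intervals stop exactly at coding genes. In NC_INTRA_C7_6001, 1 runs from 26881216 to 26958427, between the end of Cyp2b13 (26881215) and the start of Cyp2b9 (26958428). The count of 17 may thus follow from how intervals were listed, and it does not show that reads were kept apart. Another 6 pairs of features shared listed bases with each other, in all 6 pairs on opposite strands. The sources used here do not give strand use in the counting, so reads of such a pair cannot be told apart. Whether reads from a host's unspliced RNA add to a feature's value was not tested. An accession was listed beside the name for 34 features, and for 22 of these it was an NM accession, which RefSeq gives to coding transcripts. The 233 features lay in 194 host genes, and 31 hosts held 2 or more features, 70 features in all. The hosts with the most were Hnf4a, which encodes a transcription factor central to hepatocyte identity, with 5, and Chac2, Cyp7b1, Naaladl2, Pbld1 and Tra2a with 3 each. The features were spread over 20 chromosomes, 140 on the plus and 148 on the minus strand, and chromosome 2 held the most (28).

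Levels were low for most features and high for a few. The highest group value had a median of 1.75 TPM over the 288 features (quartiles 0.764 and 4.58). It reached 1 TPM in 189, 10 TPM in 49 and 100 TPM in 9. The median level over the 288 was 1.18 TPM in aHepGHRkd_STAT5bCA, 1.51 in aHepGHRkd_rIGF1, 1.24 in aHepGHRkd and 1.34 in Control. All 4 groups reached 0.5 TPM in 196 features and 1 group alone did in 42. The highest and lowest group values lay within 2-fold of each other in 189.

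The 10 features with the highest mean level included no called feature. The highest was NC_INTRA_C16_13383, a single exon of 572 bases in Cmss1 (chromosome 16, 57391224 to 57391795, minus strand), at 880 TPM in aHepGHRkd_STAT5bCA, 1019 in aHepGHRkd_rIGF1, 875 in aHepGHRkd and 1007 in Control. Its host gene Cmss1 stood at 5.72, 5.68, 5.77 and 4.75 TPM in the same order, far below the feature inside it. All 572 bases are also listed, on the opposite strand, for NC_INTRA_C16_13382, a model of 208015 bases that reaches into Filip1l and stood at 155, 179, 155 and 176 TPM. The second of these features over the first was 0.176, 0.176, 0.177 and 0.175 in the 4 groups, so the pair kept nearly 1 ratio throughout. NC_INTRA_C16_27786, in the zinc finger gene Zc3h7a, stood at 842 TPM in aHepGHRkd_STAT5bCA, 1032 in aHepGHRkd_rIGF1, 804 in aHepGHRkd and 920 in Control. It too was above its host, which was between 23.1 and 26.0 TPM.

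Other features of high level lay in genes with known liver roles. NC_INTRA_C16_28040 has 119 bases in Ahsg, which encodes the plasma protein fetuin-A, and stood at 389, 517, 435 and 481 TPM in the order above. Ahsg itself was between 7695 and 8596 TPM. NC_INTRA_C6_43529 has 144 bases in Slco1b2, a hepatocyte uptake transporter for organic anions, and stood at 62.3, 71.9, 74.4 and 71.9 TPM. NC_INTRA_C16_13186 lies in Il1rap, the accessory protein of the interleukin 1 receptor, and stood at 111, 111, 118 and 134 TPM. NC_INTRA_C5_41495 lies in Cdk8, a kinase of the Mediator complex, and stood at 99.1, 107, 91.5 and 99.1 TPM. These levels stayed close together in the 4 groups.

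Levels of this size were also found for features of other hosts. NC_INTRA_C2_1052 in the kinase gene Camk1d stood at 176 TPM in aHepGHRkd_STAT5bCA, 208 in aHepGHRkd_rIGF1, 178 in aHepGHRkd and 204 in Control, while Camk1d was between 5.76 and 8.16 TPM. NC_INTRA_C10_19297 in Tmtc2 stood at 155, 178, 159 and 164 TPM in the same order, with Tmtc2 between 2.65 and 3.79 TPM. NC_INTRA_C12_10883 stood at 97.8, 89.1, 113 and 120 TPM and spans 4 genes of the Serpina3 cluster, which encode serine protease inhibitors. Most features did not exceed their hosts in this way. Over the 233 features in 1 gene, the median level of feature and host was 1.11 and 21.2 TPM in aHepGHRkd_STAT5bCA, 1.50 and 23.3 in aHepGHRkd_rIGF1, 1.20 and 20.2 in aHepGHRkd, and 1.17 and 21.7 in Control. The feature was above its host in 24 or 25 of the 233, depending on the group. Across these 233 pairs, which share libraries and place, Spearman's rho of feature and host level was between 0.35 and 0.41.

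The first comparison, aHepGHRkd against Control, asked what loss of the hepatocyte growth hormone receptor does. Of the 288 features, 2 were higher and 15 lower, 5.9% in all, where 1.79% of all 75794 features and 5.96% of the 19071 features that reached 0.5 TPM were called. The share among intragenic features was thus near that of all features with the same minimum, coding ones included, and levels were not matched beyond that minimum. It was 6.89% for the 3365 intergenic and 6.78% for the 2065 antisense lncRNA features that reached 0.5 TPM. By direction, 0.65% of all features were higher and 1.14% lower, or 2.27% and 3.7% of those that reached 0.5 TPM. The median log2 ratio was -0.05 over the 288 features and 0.01 over the 19071. In the other comparisons, 2 features were called, both higher, in aHepGHRkd_rIGF1 over aHepGHRkd (0.694%, where 0.00792% of all features were called and 0.00396% were higher). Of the features that reached 0.5 TPM, 0.0262% were called with rIGF1 and 0.0105% were higher, and the higher ones were these 2 alone. In aHepGHRkd_STAT5bCA over aHepGHRkd, 8 were called, all higher (2.78%, where 1.21% of all features were called and 1.03% were higher). Of the features that reached 0.5 TPM, 3.51% were called with STAT5bCA and 2.9% were higher. Both of these comparisons share the aHepGHRkd group, which the first comparison uses too.

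**Figure D2:**
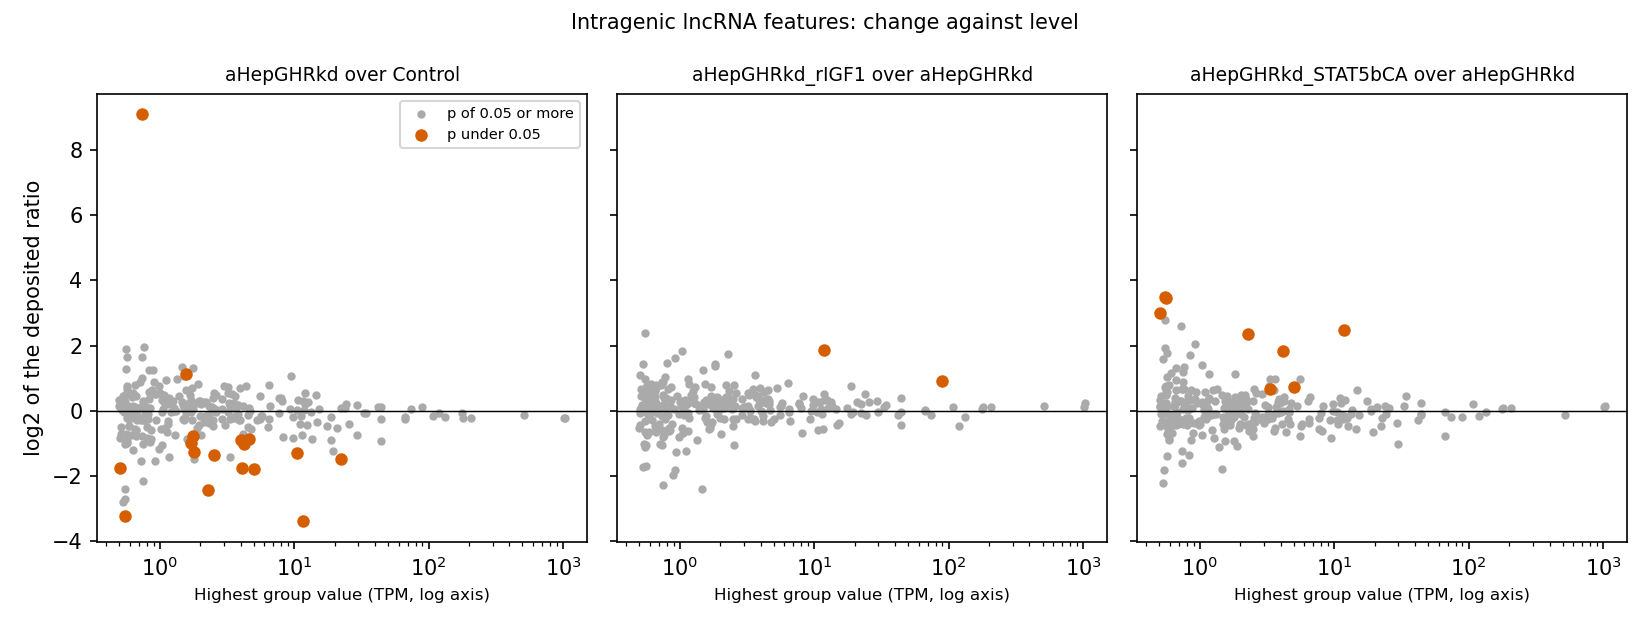
Log2 of the deposited ratio (vertical axis) against the highest group value in TPM (horizontal log axis) for the 288 features in each of the 3 comparisons, with called features in orange. Called features were 17, 2 and 8 in the panels from left to right, and none of the 10 features of highest mean level is among them.

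A total of 21 features were called in at least 1 comparison. Of these, 9 lay within 1 gene and 12 mostly outside, although 42 of the 288 features are of the second kind. In aHepGHRkd over Control, 10 of the 42 were called (2 higher, 8 lower), or 23.8%, and 7 of the 233 (all lower), or 3%. The share was 1.79% over all features and 5.96% over those that reached 0.5 TPM. The 2 kinds also differ in listed length, with medians of 78899 and 646 bases, and the part of length in the calls was not tested. The counts of calls rest on the levels that chose the features and carry no test. None of the 13 features without a same-strand gene was called in any comparison.

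**Figure D3:**
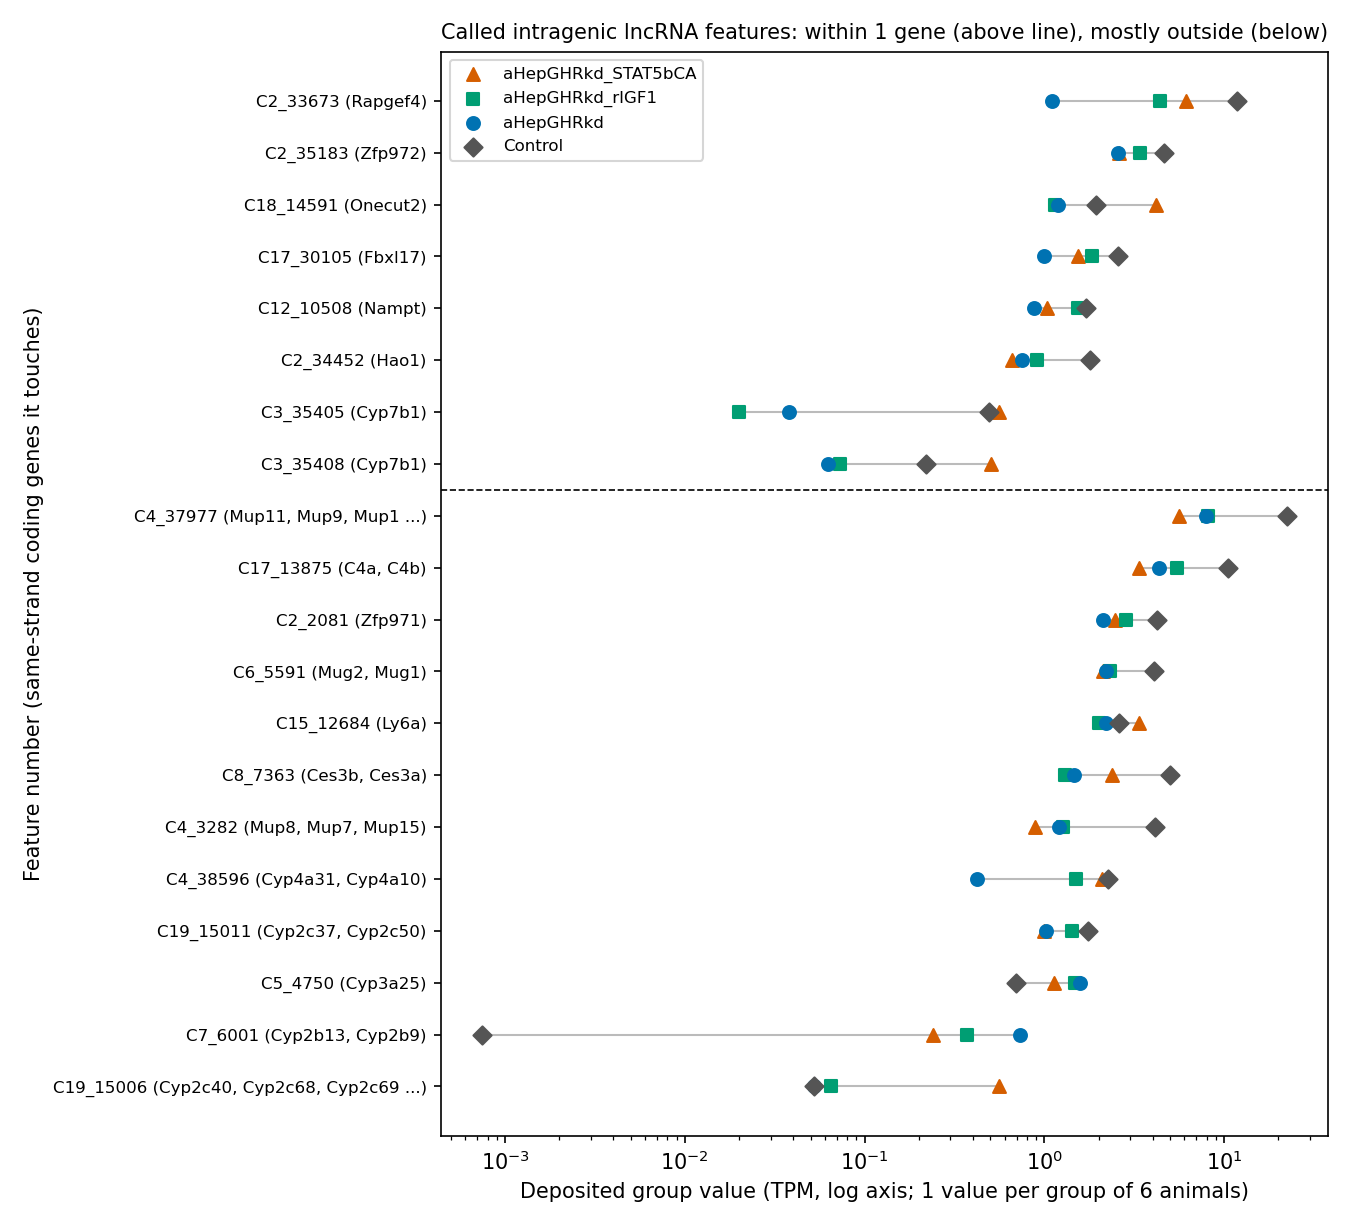
Deposited group values in TPM (log axis) of the 20 features called in aHepGHRkd over Control or in aHepGHRkd_STAT5bCA over aHepGHRkd, 1 symbol per group, with those within 1 gene above the dashed line and those mostly outside below it. NC_INTRA_C2_33673 (Rapgef4) lies at 6.17, 4.42, 1.10 and 11.7 TPM in aHepGHRkd_STAT5bCA, aHepGHRkd_rIGF1, aHepGHRkd and Control, and NC_INTRA_C7_6001 (Cyp2b13, Cyp2b9) is near 0 in Control alone.

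NC_INTRA_C2_33673 was the only one of the 288 features called in all 3 comparisons. It has 2 exons of 828 bases in all (chromosome 2, 72051003 to 72055755, plus strand) and lies inside Rapgef4, which encodes Epac2, a cAMP-activated exchange factor for Rap proteins (its promoter is printed above). It stood at 6.17 TPM in aHepGHRkd_STAT5bCA, 4.42 in aHepGHRkd_rIGF1, 1.10 in aHepGHRkd and 11.7 in Control. The aHepGHRkd value was thus the low one, and both groups with a supplied gene stood between it and Control, at 52.5% of the Control value with STAT5bCA and 37.6% with rIGF1. Its ratios by the authors' deposited table were 0.0948 for aHepGHRkd over Control (adjusted p = 5.17e-32), 3.67 for aHepGHRkd_rIGF1 over aHepGHRkd (adjusted p = 0.000458) and 5.53 for aHepGHRkd_STAT5bCA over aHepGHRkd (adjusted p = 3.39e-12). Among the 288 features, the first of these is the lowest ratio of aHepGHRkd over Control.

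Rapgef4 itself stood at 46.2 TPM in aHepGHRkd_STAT5bCA, 27.2 in aHepGHRkd_rIGF1, 24.7 in aHepGHRkd and 65.0 in Control. The host gene was called lower in aHepGHRkd (ratio 0.375, adjusted p = 1.45e-27) and higher with STAT5bCA (1.93, adjusted p = 2.36e-08) by the authors' deposited table. With rIGF1 its ratio was 1.03 (adjusted p = 1, the authors' deposited table), beside 3.67 for the feature. The difference between feature and host was not tested.

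The enzyme gene Cyp7b1, an oxysterol 7-alpha-hydroxylase of bile acid synthesis with male-biased expression in mouse liver, held 3 features. NC_INTRA_C3_35408 (7712 bases in 4 exons) stood at 0.505 TPM in aHepGHRkd_STAT5bCA, 0.0731 in aHepGHRkd_rIGF1, 0.0626 in aHepGHRkd and 0.220 in Control. NC_INTRA_C3_35405 (761 bases) stood at 0.555, 0.0199, 0.0379 and 0.494 TPM in that order, and NC_INTRA_C3_35404 (692 bases) at 0.551, 0.0219, 0.0610 and 0.400 TPM. All 3 were high with STAT5bCA and in Control and low in the other groups, as was Cyp7b1, at 146, 40.7, 31.9 and 141 TPM.

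In aHepGHRkd over Control, NC_INTRA_C3_35408 fell to a ratio of 0.295 (adjusted p = 3.55e-05) and NC_INTRA_C3_35405 to 0.105 (adjusted p = 0.0433) by the authors' deposited table. With STAT5bCA they rose 8.04-fold (adjusted p = 8.69e-11) and 11.2-fold (adjusted p = 0.00636) over aHepGHRkd by the authors' deposited table. NC_INTRA_C3_35404 had ratios of 0.189 (adjusted p = 0.237) and 6.91 (adjusted p = 0.0859) for these comparisons by the authors' deposited table and was not called. Cyp7b1 had ratios of 0.226 (adjusted p = 4.02e-19) and 4.74 (adjusted p = 2.88e-28) by the authors' deposited table. The feature levels were under 0.6 TPM throughout, against a host level of over 30 TPM, and all 3 features reached 0.5 TPM through the aHepGHRkd_STAT5bCA group alone.

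**Figure D4:**
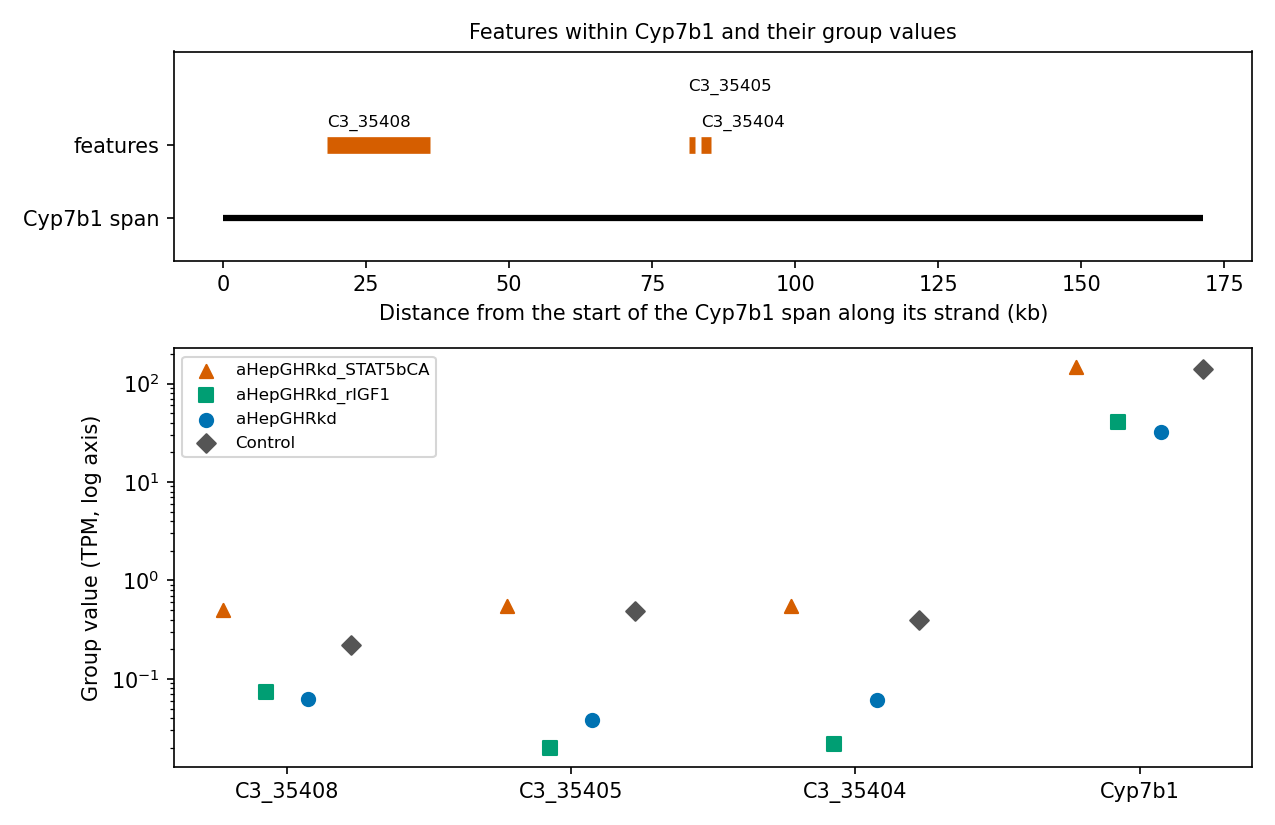
Upper panel, position of the 3 features within the Cyp7b1 span as distance from its start along its strand (kb). Lower panel, deposited group values in TPM (log axis) of these features and of Cyp7b1, where aHepGHRkd_STAT5bCA and Control lie above aHepGHRkd_rIGF1 and aHepGHRkd for all 4.

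A single-exon feature of 863 bases, NC_INTRA_C18_14591, lies in Onecut2, which encodes a homeobox factor of liver and bile duct development. It stood at 4.17 TPM in aHepGHRkd_STAT5bCA, 1.14 in aHepGHRkd_rIGF1, 1.18 in aHepGHRkd and 1.95 in Control, so the STAT5bCA value was the highest of the 4. It rose 3.58-fold with STAT5bCA (adjusted p = 2.22e-08), whereas its aHepGHRkd over Control ratio was 0.607 (adjusted p = 1) by the authors' deposited table. Onecut2 rose 1.43-fold with STAT5bCA (adjusted p = 0.011) by the authors' deposited table.

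Features inside Hao1 and Nampt were lower in aHepGHRkd. Hao1, glycolate oxidase of the peroxisome, holds NC_INTRA_C2_34452 (3488 bases), which stood at 0.658 TPM in aHepGHRkd_STAT5bCA, 0.912 in aHepGHRkd_rIGF1, 0.751 in aHepGHRkd and 1.79 in Control. The aHepGHRkd over Control ratio was 0.416 (adjusted p = 0.000303) for the feature and 0.523 (adjusted p = 2.02e-15) for Hao1 by the authors' deposited table. The noncoding gene Gdap10 (NC_INTRA_C12_10508, 2793 bases), inside Nampt, the enzyme of the NAD salvage pathway, stood at 1.04, 1.55, 0.873 and 1.71 TPM in the same order. Its ratio was 0.503 (adjusted p = 0.0444) and that of Nampt 0.914 (adjusted p = 1) by the authors' deposited table. In both features Control was the highest value, and neither was called with a supplied gene.

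The same comparison called features in a pair of further genes. Fbxl17, a gene of an F-box protein of ubiquitin ligases, holds NC_INTRA_C17_30105 (1279 bases), which stood at 1.55 TPM in aHepGHRkd_STAT5bCA, 1.83 in aHepGHRkd_rIGF1, 0.989 in aHepGHRkd and 2.55 in Control. The aHepGHRkd over Control ratio was 0.387 (adjusted p = 2.83e-05), and that of Fbxl17 was 0.757 (adjusted p = 0.0897), by the authors' deposited table. The zinc finger gene Zfp972 holds NC_INTRA_C2_35183 (1328 bases), at 2.61, 3.41, 2.58 and 4.64 TPM in the same order, with a ratio of 0.55 (adjusted p = 0.0399) beside 0.512 (adjusted p = 0.0467) for Zfp972 by the authors' deposited table. All 1328 bases of that feature are also listed, on the opposite strand, for NC_INTRA_C2_2081. This larger model touches Zfp971, stood at 2.48, 2.85, 2.11 and 4.25 TPM and had a ratio of 0.491 (adjusted p = 2.04e-06) by the authors' deposited table. The pair and Zfp972 were high in Control and lower in the other groups.

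Among the features mostly outside their genes, the P450 clusters gave the highest folds. NC_INTRA_C7_6001 reaches from Cyp2b13 to Cyp2b9, both female-biased P450 genes, whose promoters are printed above. It has 77491 listed bases and 8 exons (chromosome 7, 26855254 to 26965199, plus strand). It stood at 0.239 TPM in aHepGHRkd_STAT5bCA, 0.372 in aHepGHRkd_rIGF1, 0.735 in aHepGHRkd and 0.000741 in Control. The aHepGHRkd over Control ratio was 555 (adjusted p = 1.31e-19) by the authors' deposited table, a fold that rests on a Control value near 0. With STAT5bCA its ratio was 0.325 (adjusted p = 0.192) by the authors' deposited table. The genes at its ends had the same order, with Cyp2b13 at 8.91, 14.0, 36.5 and 0.0152 TPM and Cyp2b9 at 196, 244, 287 and 1.35 TPM. It reached 0.5 TPM through the aHepGHRkd group alone. Cyp2b9 and Cyp2b13 are close copies, so reads may be split between these genes and the feature, and the values are uncertain for that reason.

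In the Cyp2c cluster, NC_INTRA_C19_15006 (107410 listed bases, 39 exons, chromosome 19, 39693745 to 39965167, minus strand) touches Cyp2c40, Cyp2c67, Cyp2c68 and Cyp2c69. It stood at 0.556 TPM in aHepGHRkd_STAT5bCA, 0.0651 in aHepGHRkd_rIGF1, 0.0526 in aHepGHRkd and 0.0522 in Control, so the STAT5bCA group alone was high and alone reached 0.5 TPM. It rose 11.1-fold with STAT5bCA (adjusted p = 4.17e-71) and had a ratio of 0.992 for aHepGHRkd over Control (adjusted p = 1) by the authors' deposited table. Of the genes it touches, Cyp2c69, a female-biased gene, stood at 490, 0.416, 0.583 and 3.37 TPM, and Cyp2c40 at 67.9, 2.13, 2.33 and 10.6 TPM. Cyp2c67 (154, 85.9, 83.9 and 237 TPM) and Cyp2c68 (325, 164, 151 and 159 TPM) were present in all groups. All of these genes were called higher with STAT5bCA, Cyp2c67 by 1.89-fold and Cyp2c68 by 2.23-fold, by the authors' deposited table. In aHepGHRkd over Control, Cyp2c69 (ratio 0.175), Cyp2c40 (0.22) and Cyp2c67 (0.351) were called lower, unlike the feature, and Cyp2c68 (0.943) was not called.

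A second Cyp2c feature, NC_INTRA_C19_15011, touches Cyp2c37 and Cyp2c50 on its strand and Cyp2c54 on the other. It stood at 0.998 TPM in aHepGHRkd_STAT5bCA, 1.43 in aHepGHRkd_rIGF1, 1.03 in aHepGHRkd and 1.75 in Control, and fell to a ratio of 0.58 in aHepGHRkd over Control (adjusted p = 0.0298) by the authors' deposited table. In the same comparison the genes it touches did not move as one. Cyp2c54 fell to a ratio of 0.0862 (adjusted p = 1.8e-67), Cyp2c37 rose 1.88-fold (adjusted p = 0.0093) and Cyp2c50 had a ratio of 1.12 (adjusted p = 1) by the authors' deposited table. NC_INTRA_C19_15011 also shares 43552 listed bases with NC_INTRA_C19_15012 on the opposite strand. The level of NC_INTRA_C19_15012 over that of NC_INTRA_C19_15011 was 5.15, 5.37, 5.95 and 3.66 in the order of groups above. Reads of this pair cannot be told apart.

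The Cyp4a genes encode omega-hydroxylases of fatty acids, and NC_INTRA_C4_38596 (30683 listed bases, 2 exons) reaches from Cyp4a10 to Cyp4a31. It stood at 2.09 TPM in aHepGHRkd_STAT5bCA, 1.50 in aHepGHRkd_rIGF1, 0.420 in aHepGHRkd and 2.27 in Control, so aHepGHRkd was the low value. Its level fell to a ratio of 0.183 in aHepGHRkd over Control (adjusted p = 0.00218) and rose 5.13-fold with STAT5bCA (adjusted p = 0.000751) by the authors' deposited table. Its ratio with rIGF1 was 3.33 (adjusted p = 0.941, the authors' deposited table) and was not called. Cyp4a10 (962, 385, 355 and 642 TPM) rose 2.78-fold with STAT5bCA (adjusted p = 4.5e-06), as Cyp4a31 (35.8, 20.9, 18.5 and 18.0 TPM) rose 1.99-fold (adjusted p = 3.77e-05), by the authors' deposited table. In aHepGHRkd over Control their ratios were 0.548 (adjusted p = 0.357) and 1.01 (adjusted p = 1) by the authors' deposited table.

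The Cyp3a cluster gave the second feature that was higher in aHepGHRkd. NC_INTRA_C5_4750 (84860 listed bases, 9 exons) touches Cyp3a25 on its strand and Cyp3a59 on the other. The feature stood at 1.13 TPM in aHepGHRkd_STAT5bCA, 1.47 in aHepGHRkd_rIGF1, 1.58 in aHepGHRkd and 0.699 in Control. It rose 2.19-fold in aHepGHRkd over Control (adjusted p = 0.000383), beside 1.41-fold for Cyp3a25 (adjusted p = 0.00118) and 4.35-fold for Cyp3a59 (adjusted p = 2.03e-31), by the authors' deposited table. Control was the lowest value for the feature and for both genes.

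Features of the Mup cluster were lower in aHepGHRkd in 2 of 3 cases. Mup genes encode small proteins that bind pheromones in urine and are close copies of each other, so reads may be shared among them. NC_INTRA_C4_37977 (229876 listed bases, 11 exons) touches Mup1, Mup9, Mup10 and Mup11. This feature stood at 5.57 TPM in aHepGHRkd_STAT5bCA, 8.17 in aHepGHRkd_rIGF1, 7.88 in aHepGHRkd and 22.4 in Control. NC_INTRA_C4_3282 (78899 bases; Mup7, Mup8 and Mup15) stood at 0.890, 1.27, 1.20 and 4.11 TPM in the same order. Their ratios of aHepGHRkd over Control were 0.356 (adjusted p = 0.000104) and 0.294 (adjusted p = 1.04e-06) by the authors' deposited table, and those with STAT5bCA were 0.721 and 0.756 (adjusted p = 1 for both). Both were high in Control alone. NC_INTRA_C4_3293 (350381 bases; Mup16 to Mup19), the other Mup feature, stood at 3.19, 5.45, 5.60 and 4.11 TPM and had a ratio of 1.37 (adjusted p = 0.907) by the authors' deposited table.

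Features across the Ces3, C4 and Mug genes were also lower in aHepGHRkd. Ces3a and Ces3b, carboxylesterases of liver, are joined by NC_INTRA_C8_7363 (33109 listed bases, 20 exons). This feature stood at 2.36 TPM in aHepGHRkd_STAT5bCA, 1.30 in aHepGHRkd_rIGF1, 1.46 in aHepGHRkd and 5.02 in Control. Its level fell to a ratio of 0.289 in aHepGHRkd over Control (adjusted p = 8.05e-11) and rose 1.67-fold with STAT5bCA (adjusted p = 0.0268) by the authors' deposited table. Ces3b, at 135, 39.1, 43.4 and 394 TPM, had the same order of groups.

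NC_INTRA_C17_13875 (62322 listed bases, 3 exons) touches C4a and C4b, genes of complement component 4, and carries an NM accession. It stood at 3.38 TPM in aHepGHRkd_STAT5bCA, 5.49 in aHepGHRkd_rIGF1, 4.31 in aHepGHRkd and 10.5 in Control, with a ratio of 0.407 for aHepGHRkd over Control (adjusted p = 0.000697) by the authors' deposited table. Its neighbours differed, with ratios of 0.352 for C4a (adjusted p = 4.86e-11) and 1.17 for C4b (adjusted p = 0.907) by the authors' deposited table. NC_INTRA_C6_5591 (381687 listed bases, 78 exons) touches the murinoglobulin genes Mug1 and Mug2, which encode plasma protease inhibitors. The feature stood at 2.11, 2.33, 2.19 and 4.04 TPM in the same order. Its level fell to a ratio of 0.54 (adjusted p = 0.000311), beside 0.55 for Mug1 (adjusted p = 1.84e-09) and 0.911 for Mug2 (adjusted p = 1), by the authors' deposited table. Control was the highest value for both features, and with a supplied gene neither was called.

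The last called feature, NC_INTRA_C15_12684, touches Ly6a, a membrane protein gene of the Ly6 family also known as Sca-1. This model has 428228 listed bases and 77 exons. It stood at 3.35 TPM in aHepGHRkd_STAT5bCA, 2.02 in aHepGHRkd_rIGF1, 2.19 in aHepGHRkd and 2.61 in Control. It rose 1.57-fold with STAT5bCA (adjusted p = 2.55e-06), beside 2.75-fold for Ly6a (adjusted p = 0.000364), by the authors' deposited table. Ly6g2, a Ly6 gene nearby on the plus strand, rose 1.34-fold (adjusted p = 0.00901) by the authors' deposited table. Ly6f and Ly6g, on the same strand as Ly6g2, were at 0.202 and 0.0178 TPM in aHepGHRkd_STAT5bCA and 0.0681 and 0.0467 in aHepGHRkd. The fold of the feature is below 2, as is that of NC_INTRA_C8_7363 in the same comparison.

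Feature and host were then set side by side for the 233 features within 1 gene. In aHepGHRkd over Control, 21 of them had a called host (17 lower, 4 higher) and 7 were called themselves, and 5 had both calls, in the same direction each time. These are counts of features, and hosts repeat among them, since Cyp7b1 holds 3 and Kyat1 and Cyp2c39 hold 2 each. Of the 12073 coding features that reached 0.5 TPM, 5.98% were called in this comparison and 3.34% with STAT5bCA. Gdap10 in Nampt and NC_INTRA_C17_30105 in Fbxl17 were called without their host. The log2 ratios of feature and host had the same sign in 146 of 233 (62.7%) and in 20 of the 21 with a called host. The exception was NC_INTRA_C16_28090 in Bcl6, a transcriptional repressor that growth hormone lowers in liver, at 0.372 TPM in aHepGHRkd_STAT5bCA, 0.677 in aHepGHRkd_rIGF1, 0.570 in aHepGHRkd and 0.807 in Control. Its ratio was 0.701 (adjusted p = 1), while Bcl6 rose 2.74-fold (adjusted p = 3.35e-08), by the authors' deposited table. Feature and host ratios lay over 2-fold apart in 30 of the 233.

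With STAT5bCA, 16 of the 233 features had a called host (9 higher, 7 lower). The 4 called features were among them, each in the direction of its host. The sign was the same in 12 of the 16 and in 139 of 233 (59.7%). Of the 4, NC_INTRA_C3_35405 and NC_INTRA_C3_35408 share the host Cyp7b1. Both entered only through their level in aHepGHRkd_STAT5bCA, which favours a higher call there, so this count carries no test. With rIGF1 no host was called and the 2 called features had none beside them, with the same sign in 115 of 233 (49.4%). Of the 12073 coding features that reached 0.5 TPM, 0.0166% were called with rIGF1, so a lack of called hosts is near that share. As a description across these features, which share libraries and hosts, Pearson's r of the log2 ratios was 0.46 for the knockdown against Control, 0.12 for rIGF1 against aHepGHRkd and 0.48 for STAT5bCA against aHepGHRkd. Spearman's rho was 0.38, 0.04 and 0.28 in the same order. The features spread wider than their hosts, with a median absolute log2 ratio of 0.31 against 0.15 in the first comparison, 0.36 against 0.09 in the second and 0.34 against 0.12 in the third.

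**Figure D5:**
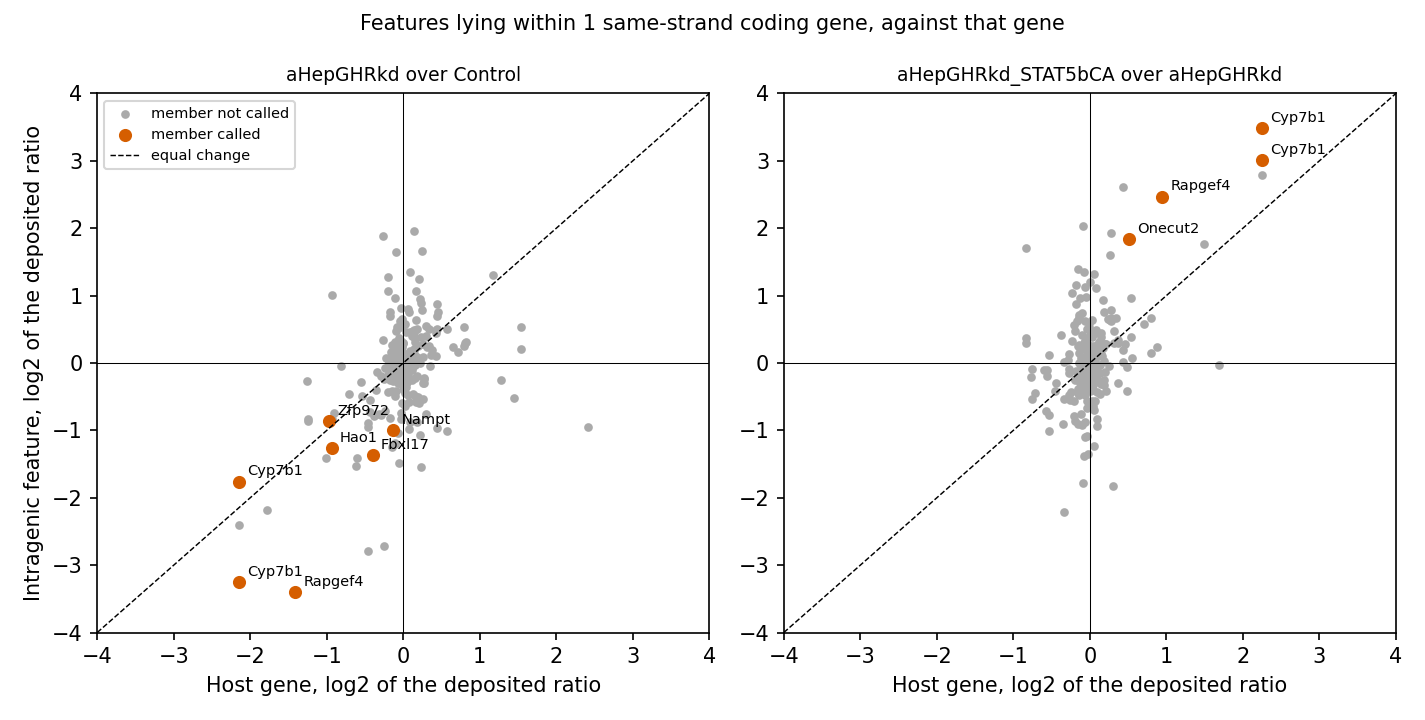
Log2 of the deposited ratio of each of the 233 features within 1 gene (vertical axis) against that of its host gene (horizontal axis) for aHepGHRkd over Control (left) and aHepGHRkd_STAT5bCA over aHepGHRkd (right), with the line of equal change. Pearson's r is 0.46 and 0.48, and the called features, in orange with the host named, lie below 0 on the left and above 0 on the right.

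With rIGF1 the 288 features as a group had a median log2 ratio of 0.13, and 0.18 for those within 1 gene, beside 0.00 over the 19071 features that reached 0.5 TPM. With STAT5bCA the median was -0.03, beside -0.00. Ratios taken from the group TPM values instead of the deposited ratio were higher by a median of 0.02, 0.10 and -0.05 on the log2 scale for the 3 comparisons in the order above, over the features that reached 0.5 TPM and were above 0 in both groups. The sums of the stellate cell and cholangiocyte lists were also highest in aHepGHRkd_rIGF1, and their part in the feature levels was not tested.

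Features touched some genes of the sex-bias lists. Of 15 genes of the growth hormone and IGF1 axis, 1 was higher and 6 lower in aHepGHRkd over Control, 6 were higher and 1 lower with STAT5bCA, and none was touched by one of the 288 features. The lower ones include Ghr, the targeted gene, and those higher with STAT5bCA include Stat5b (2.91-fold), the supplied gene. Of 27 male-biased genes, 1 was higher and 21 lower in aHepGHRkd over Control, and 11 were higher and 5 lower with STAT5bCA. Of these, 6 were touched, namely Mup1, Mup7, Selenbp2, Cyp7b1, Bcl6 and Hsd3b2. Of 33 female-biased genes, 16 were higher and 6 lower in aHepGHRkd over Control, and 17 were higher and 2 lower with STAT5bCA. Features touched 9 of these, namely Cyp2b9, Cyp2b13, Cyp2c39, Cyp2c40, Cyp2c69, Cyp3a16, Cyp3a41a, Cyp3a41b and Cyp3a44. No gene of any list was called with rIGF1, where 0.0166% of the coding features that reached 0.5 TPM were called. Of the 12073 coding features that reached 0.5 TPM, 5.98% were called in aHepGHRkd over Control and 3.34% with STAT5bCA. The lists were chosen with earlier results of these data known, so their counts carry no test.

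Not all features at these genes were called. NC_INTRA_C5_4726, which spans 357646 bases of the Cyp3a cluster from Cyp3a16 on, stood at 1.96 TPM in aHepGHRkd_STAT5bCA, 2.99 in aHepGHRkd_rIGF1, 2.64 in aHepGHRkd and 1.53 in Control, with a ratio of 1.7 for aHepGHRkd over Control (adjusted p = 0.0776) by the authors' deposited table. With STAT5bCA its ratio was 0.762 (adjusted p = 1), while Cyp3a41a, one of the genes it touches, rose 40-fold (adjusted p = 4.38e-70), by the authors' deposited table. NC_INTRA_C3_2574, at the selenium-binding protein gene Selenbp2, stood at 1.14, 0.736, 0.869 and 1.60 TPM in the same order, with a ratio of 0.549 for aHepGHRkd over Control (adjusted p = 0.453) by the authors' deposited table. Selenbp2 itself fell to a ratio of 0.0421 (adjusted p = 1.36e-51, the authors' deposited table). NC_INTRA_C3_2640, at the steroid dehydrogenase gene Hsd3b2, stood at 0.818, 0.833, 0.711 and 1.02 TPM. NC_INTRA_C19_32389 and NC_INTRA_C19_32385, both in Cyp2c39, stood at 10.7, 12.1, 8.76 and 5.99 TPM and at 0.621, 0.461, 0.751 and 0.640 TPM, and neither was called. Cyp2c39 rose 2.9-fold in aHepGHRkd over Control (adjusted p = 1.14e-07) by the authors' deposited table.

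No feature at a hepatocyte identity gene was called in any comparison. They were few, with 5 in Hnf4a, 2 in Apoa2, 1 in Ahsg and 1 across Serpina1a. Of all features that reached 0.5 TPM, 5.96% were called in aHepGHRkd over Control, 0.0262% with rIGF1 and 3.51% with STAT5bCA. The lack of calls among so few does not set them apart from these shares. Of the 18 hepatocyte identity genes, 1 was higher and 1 lower in aHepGHRkd over Control and 2 were higher with STAT5bCA. The 4 touched were Apoa2, Serpina1a, Ahsg and Hnf4a. The 5 features of Hnf4a had ratios between 0.876 and 1.17 in aHepGHRkd over Control by the authors' deposited table, and none was called. NC_INTRA_C2_34883, the longest of them with 6335 bases, stood at 2.15 TPM in aHepGHRkd_STAT5bCA, 3.22 in aHepGHRkd_rIGF1, 2.06 in aHepGHRkd and 2.11 in Control. In Apoa2, an apolipoprotein gene of high-density lipoprotein, NC_INTRA_C1_17411 and NC_INTRA_C1_810 stood at 6.79, 11.9, 7.73 and 7.63 TPM and at 6.93, 9.79, 7.14 and 8.13 TPM. NC_INTRA_C12_10851, across Serpina1a, Serpina1b and Serpina1d of the alpha-1-antitrypsin family, stood at 16.2, 16.6, 16.6 and 18.9 TPM. Of the non-hepatocyte lists, 1 gene was touched, the stellate cell gene Reln, by NC_INTRA_C5_39646 at 0.192, 0.549, 0.264 and 0.217 TPM. In the stellate, Kupffer, endothelial, cholangiocyte and lymphocyte lists no gene was called in any comparison, and in the erythrocyte list 1 gene was lower in aHepGHRkd over Control and 1 lower with STAT5bCA.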

How the data were processed

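One table was used. TPM in it is 1 value per group, made by the authors, with STAR, featureCounts and edgeR on mm9 named in the submitters' processing notes (the sources used here give no versions). The ratio, or fold, and the p-value of each of 3 comparisons are the authors' deposited edgeR values. The p column was read as adjusted, since 69174, 75054 and 72384 of its values are exactly 1. A further deposited score column was not used. Of 75798 lines, 75794 held a feature and 4 were empty.

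From these values were computed counts of called features (p under 0.05), places of the features' listed intervals in the spans of same-strand coding genes, feature and host comparisons, and promoter motif and identity counts (Python 3.11.15, pandas 2.3.3, Biopython 1.88). The scripts were tested on simulated data. One reversed interval of NC_INTRA_C8_7308 was left out. The members and the gene lists were chosen with earlier results of these data known. Features were named, except 1 called feature that is not reported here, where called with one of the 8 highest folds in a direction and 1 TPM or more, where called with rIGF1, where among the 10 of highest mean level or the 3 on each side of the threshold, or where a list gene hosts them. The called features outside this rule, and NC_INTRA_C4_3293, were named after their values were seen. Group values allow no test between animals.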

Additional observations from a re-analysis of the deposited data

How the results depend on the processing

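Directions of the 27 calls over the 3 comparisons were the same in 27 when taken from the ratio of group TPM values. With p under 0.01, 21 calls stayed past the threshold and 6 did not, and with a fold of at least 2 these numbers were 20 and 7. The count of features called in aHepGHRkd over Control, 17 as reported, was 28 with a minimum of 0.1 TPM and 29 without one, where 660 and 1322 features entered, and 7 over the 233 features within 1 gene. With rIGF1 it was 1 in place of 2 with a fold of at least 2 and with p under 0.01. With STAT5bCA it was 5 in place of 8 at a minimum of 1 TPM and 4 within 1 gene. With features carrying an accession left out, 254 entered. Of these, 12 were called in aHepGHRkd over Control (1 higher, 11 lower), 2 with rIGF1 and 7 with STAT5bCA. These counts differ by their construction, since other features entered or the rule was stricter. Pearson's r of feature and host was 0.56 in place of 0.46 for aHepGHRkd over Control at 1 TPM or more, and 0.33 with called features left out. For STAT5bCA it was 0.35 and 0.31 in place of 0.48. The cause was not tested. The restriction to features within 1 gene and the r without called features were chosen after seeing the data. No paired analysis was possible because the table holds no value per animal, and for the same reason leaving out replicates was not run. A host from an overlap column of the table was not run either. The lack of per-library depth limits what features under 1 TPM can show.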

Other observations

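Some features that were not called lay in genes that were called in aHepGHRkd over Control, and the following were chosen after their values were seen. NC_INTRA_C12_10717 lies in Slc10a1, the main bile acid uptake transporter of hepatocytes, and stood at 2.44 TPM in aHepGHRkd_STAT5bCA, 1.29 in aHepGHRkd_rIGF1, 1.26 in aHepGHRkd and 3.33 in Control, with a ratio of 0.375 (adjusted p = 0.0935) beside 0.496 for Slc10a1 (adjusted p = 7.19e-18) in the authors' deposited table. Both features of Kyat1, a kynurenine aminotransferase, had ratios of 0.549 (NC_INTRA_C2_33160, adjusted p = 0.0885) and 0.56 (NC_INTRA_C2_33161, adjusted p = 0.607) beside 0.424 for Kyat1 (adjusted p = 2.06e-13) in the authors' deposited table. NC_INTRA_C11_19884, in the epidermal growth factor receptor gene Egfr, was at 0.0934 TPM in aHepGHRkd_STAT5bCA, listed at 0 in aHepGHRkd_rIGF1, and at 0.145 in aHepGHRkd and 0.752 in Control.

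Features of 1 host did not always share an order of groups. In Ass1, the argininosuccinate synthase of the urea cycle, NC_INTRA_C2_33209 stood at 4.73, 9.55, 8.88 and 4.13 TPM in aHepGHRkd_STAT5bCA, aHepGHRkd_rIGF1, aHepGHRkd and Control, while NC_INTRA_C2_33210 stood at 7.41, 12.4, 8.99 and 12.2 TPM in that order. These features have 94 and 154 listed bases, and neither was called.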
